A study of Mus musculus and Homo sapiens with 20 samples.

Results

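The regions described here are the 162180 accessible regions of HepG2 cells that lay on chromosomes 2, 14, 16, 17 and 20, the chromosomes for which this line is known to carry extra copies. They were chosen by chromosome alone from 500015 regions on the autosomes and chromosome X, each made by joining ATAC-seq peaks of 8 libraries that overlapped by at least 1 bp. The other 17 autosomes held 330122 regions and served as the comparison. HepG2 is an established human liver cancer cell line. The study used 20 libraries to follow chromatin accessibility under vitamin B2 (riboflavin) deficiency, and the 12 from mouse cells are not used here. At day 12, 4 HepG2 libraries were titled B2_minus, the deficient condition per the labels, and 4 were titled Cont. No genotype or added agent was labelled for either HepG2 group. The labels do not say whether the replicates were separate cultures, so the spread behind each p-value is that between libraries and may be technical.

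ATAC-seq uses the transposase Tn5 to cut and tag DNA where chromatin is open, and the resulting tags, the ends of sequenced fragments, gather at accessible promoters and enhancers. Every copy of a chromosome is a template for the enzyme. A site on a chromosome with extra copies can therefore give more tags than an equally open site elsewhere, and a weak site can more easily reach the level at which a peak is listed. Cancer lines often carry such gains, and some gains cover only a stretch of a chromosome. Chromosomes also differ in gene density, and chromosomes 16, 17, 19, 20 and 22 are known as gene-rich. Neither DNA copy number nor gene density was measured here, and the part of either in the results was not tested. A human gene annotation was not used here, so regions are given by their hg38 position without genes.

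Each of the 8 lists held 253125 to 285530 peaks with 5705857 to 7856370 tags, and the lowest listed count was 6 to 8 tags. In 8 of the 8 libraries the condition in the title and the condition in the deposited file's name were swapped. Groups follow the titles and are written as labelled B2_minus and labelled Cont, and every direction between them is open to this doubt. Counts of replicates varied less than Poisson counting noise, with a variance of 0.574 to 0.639 times the Poisson value over the 12 pairs within a group, and the reason was not tested.

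Accessible regions were more densely packed on the gained chromosomes. They held 304 merged regions per Mb of the 100 kb windows that contained a peak, against 165 per Mb on the other autosomes, a ratio of 1.84. They made up 32.9% of autosomal regions on 21.1% of the covered autosomal length, and the median gap between neighbouring regions was 483 bp against 729 bp. Counted in single libraries, peak density on the gained chromosomes was 1.68, 1.69, 1.65 and 1.63 times that on the other autosomes in the libraries labelled B2_minus 1 to 4. The ratio was 1.72, 1.72, 1.68 and 1.64 in the libraries labelled Cont 1 to 4. All 8 libraries thus showed the excess, and the groups overlapped.

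The 5 chromosomes were not alike. Chromosome 20 was the densest of the 22 autosomes at 489 merged regions per Mb, followed by chromosome 17 at 374 and chromosome 16 at 361. Chromosomes 19 and 22, which are not among the gained chromosomes, came next at 350 and 321 per Mb. Chromosome 14 followed with 261 and chromosome 2 with 228. Chromosome 6 had 203, and the lowest density, 105, was on chromosome 4. The order was different for regions with a peak in all 8 libraries, of which chromosome 19 had the most, at 106 per Mb. Chromosomes 17, 20, 22 and 16 followed with 103, 99.4, 94.5 and 90.4. By that count chromosome 2, at 55.7, was below chromosome 1, at 60.1. Density alone thus did not separate the gained chromosomes from all others.

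**Figure D1:**
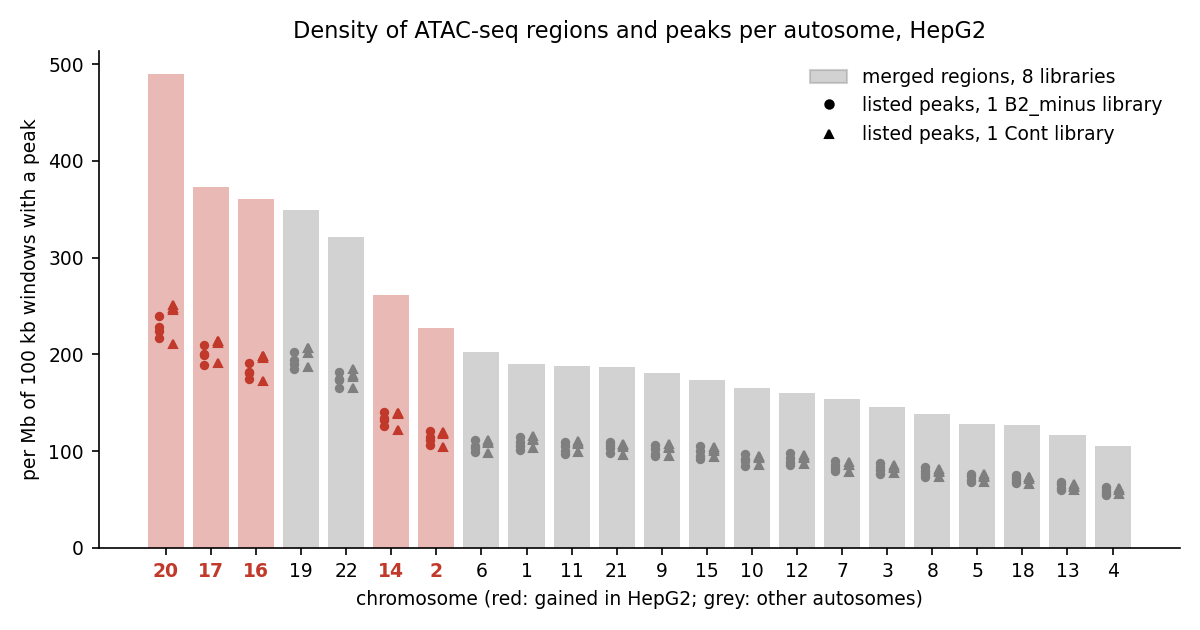
Merged regions per Mb (bars) and listed peaks per Mb in each library (points) for the 22 autosomes, per Mb of 100 kb windows with a peak, ordered by region density. The gained chromosomes (red) hold ranks 1, 2, 3, 6 and 7, with chromosomes 19 and 22 between them.

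The excess was larger for regions seen in few libraries. Regions with a peak in 1 library were 2.15 times as dense on the gained chromosomes, those in 2 to 7 libraries 1.85 times, and those in all 8 libraries 1.499 times. The share of regions found in all 8 libraries was accordingly 24.4% on the gained chromosomes and 29.9% on the others. Per chromosome this share was 20.3% on chromosome 20, 24.5% on chromosome 2, 24.9% on chromosome 14, 25.0% on chromosome 16 and 27.5% on chromosome 17. Chromosome 6 was the exception among the others, at 26.9%, and the remaining 16 chromosomes lay between 28.3% and 31.6%. Chromosomes 19 and 22, nearly as dense as chromosome 16 in merged regions, had 30.2% and 29.4%. In each library a larger share of the peaks on gained chromosomes stood at that library's lowest listed count, 14.8% to 20.3% over the 8 libraries, against 11.8% to 17.2% on the other autosomes.

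Levels were compared at the 138388 autosomal regions with a peak in every library, 39594 of them on gained chromosomes. A level is the mean over the 8 libraries of scaled tags, meaning the tag count of a library's highest peak in the region, divided by the library's size relative to the mean. The typical level hardly differed, with a median of 25.4 scaled tags on the gained chromosomes and 25.1 on the others. Over all listed peaks, weak ones included, the direction turned: the median count was lower on the gained chromosomes in all 8 libraries, with a mean ratio of 0.876. Among regions with a peak in every library, the distributions parted toward the strong end. The 75th percentile was 50.2 against 46.7 scaled tags, the 90th was 87.1 against 78.2, and the 99th was 145 against 125. The 99th percentile on gained chromosomes was 1.14 to 1.18 times that on the other autosomes in each of the 8 libraries, whereas the median was 1.00 to 1.05 times.

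At the 99th percentile of level all 5 gained chromosomes ranked above the other 17. It was 155 scaled tags on chromosome 14, 149 on chromosome 20, 144 on chromosome 16, 142 on chromosome 2 and 139 on chromosome 17. Chromosome 6 followed closely with 138 and chromosome 19 with 131, while chromosome 22 had 121. This order did not hold lower in the distribution. At the 90th percentile chromosome 19 had 91.6 scaled tags, more than any gained chromosome, and chromosome 6 had 84.9, more than chromosome 2 with 83.0 and chromosome 14 with 82.5. Of the 1000 strongest autosomal regions, 642 lay on gained chromosomes, which held 28.6% of the regions compared. That came to 200 on chromosome 2, 138 on chromosome 20, 112 on chromosome 16, 101 on chromosome 14 and 91 on chromosome 17. Chromosome 6 held 100, and no other chromosome held more than the 33 of chromosome 19. Relative to the regions compared on each chromosome, chromosome 20 led with 2.25%, and chromosome 17 was lowest of the 5 with 1.13%, next to chromosome 6 with 1.12%.

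**Figure D2:**
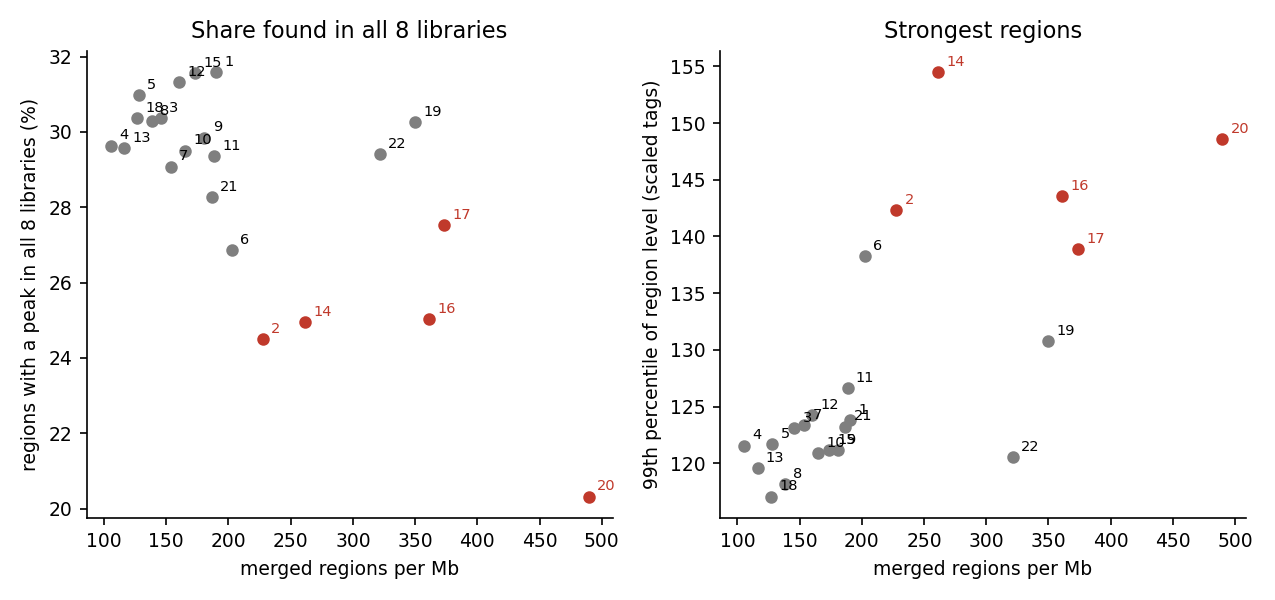
Each autosome is 1 point, placed by merged regions per Mb against the share of its regions with a peak in all 8 libraries (left, %) and against the 99th percentile of region level (right, scaled tags). Gained chromosomes (red) lie low on the left, from 20.3% to 27.5%, and high on the right, from 139 to 155 scaled tags, with chromosome 6 the nearest other autosome in both.

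These features were not spread evenly along the chromosomes. In windows of 10 Mb with at least 200 regions, a median of 30.5% of regions were found in all 8 libraries on the other autosomes. All 25 windows of chromosome 2, all 9 of chromosome 16 and all 7 of chromosome 20 were below that value, as were 8 of 9 on chromosome 17 and 5 of 9 on chromosome 14. Of the 18 windows of chromosome 6, 15 were below it too. Chromosome 20 was the most even, between 18.6% and 21.8% in its 7 windows. The window size and the stretches described next were chosen after these values were seen.

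Chromosome 14 changed abruptly along its length. In the windows starting at 20, 30 and 40 Mb, 21.8%, 16.4% and 16.4% of regions were found in all 8 libraries, whereas the 6 windows from 50 Mb to the end had 27.3% to 35.0%. In steps of 2 Mb the share was 5.61% from 40 to 42 Mb, 7.92% from 42 to 44 Mb and 30.3% from 44 to 46 Mb. The first 50 Mb carried 358 regions per Mb and the rest of the chromosome 207. Of the 101 regions of chromosome 14 among the 1000 strongest, 83 lay in the first 50 Mb. The 99th percentile of level in that stretch was 179 scaled tags. Taken in each library on its own, it averaged 181 ± 8.4 scaled tags (SD over the 8 libraries) against 125 ± 5.18 beyond 50 Mb. No library overlapped between the stretches, since the lowest of the 8 values in the first was 167 and the highest in the second was 132. Beyond 50 Mb the 99th percentile of level was that of the other autosomes, 125 scaled tags, and 31.2% of the regions there were found in all 8 libraries. Taken as a whole, the first part of chromosome 14 thus had the low share and strong upper end seen on chromosomes 2, 16 and 20, and the remainder did not. These features did not coincide in every step of 2 Mb. From 40 to 42 Mb and from 42 to 44 Mb the 99th percentile of level was 77.0 and 91.8 scaled tags, with 0 of the 1000 strongest. From 44 to 50 Mb the share was 28.9% to 33.6%, also with 0 of the strongest. Copy number along the chromosome was not measured.

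A smaller step was seen on chromosome 17. Its first 40 Mb held 261 regions per Mb with 29.6% found in all 8 libraries, and its remaining part held 466 per Mb with 26.6%. Of its 91 regions among the 1000 strongest, 12 lay in the first 40 Mb and 79 beyond. The 99th percentile of level was 127 scaled tags in the first stretch and 143 in the second. Taken in each library on its own, it averaged 129 ± 5.08 and 145 ± 6.17 (SD, n = 8 libraries). The ranges over libraries, 122 to 135 and 135 to 152, overlapped slightly.

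**Figure D3:**
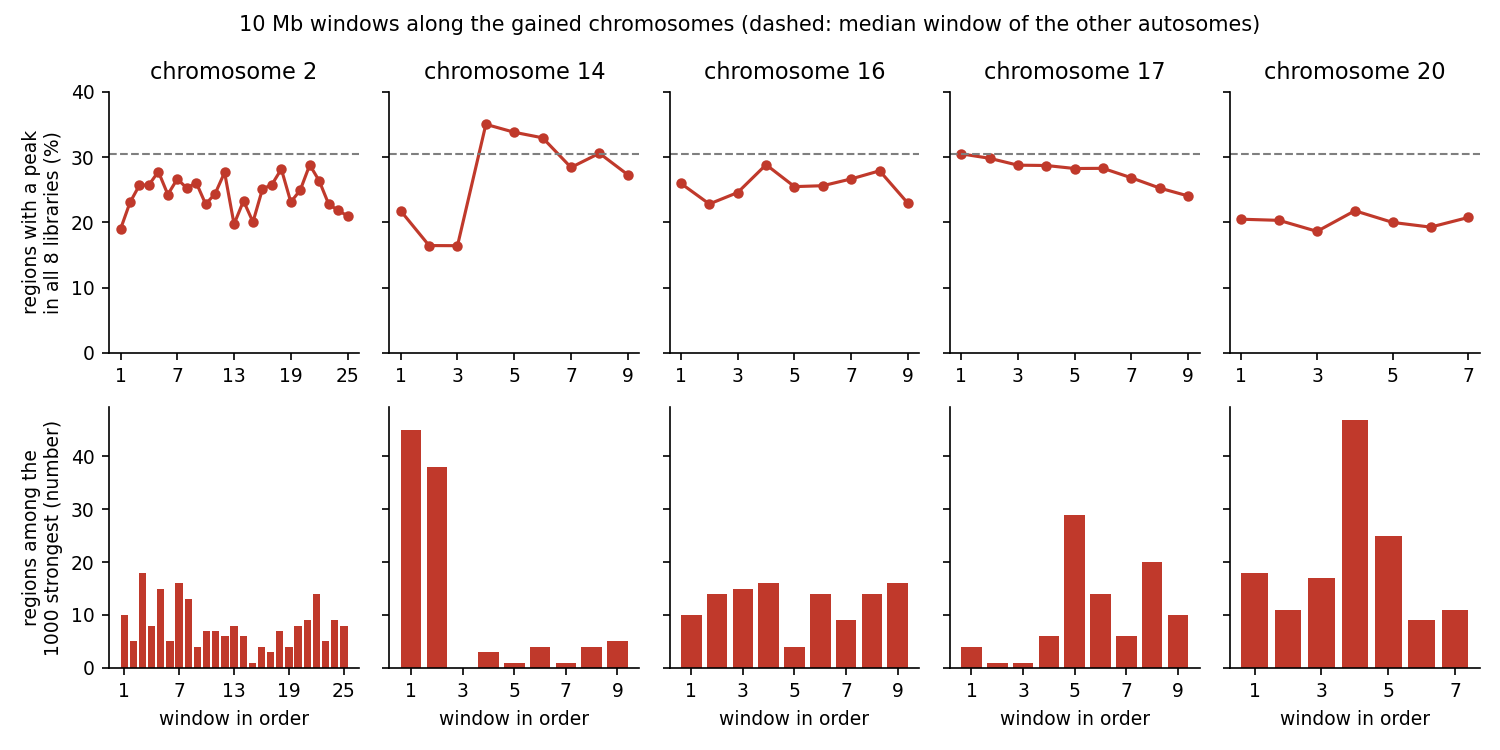
For each gained chromosome, 10 Mb windows with at least 200 regions in their order along the chromosome: the share of regions with a peak in all 8 libraries (top, %) and the number among the 1000 strongest autosomal regions (bottom). Chromosome 14 moves from 16.4% to 35.0% between neighbouring windows and holds 83 of its 101 strongest regions in its first 2 plotted windows, while chromosome 20 stays between 18.6% and 21.8% throughout.

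The share of autosomal tags that fell on the gained chromosomes was lower in the libraries labelled B2_minus. It was 30.6%, 30.6%, 30.3% and 30.2% in B2_minus 1 to 4, and 31.0%, 31.0%, 30.8% and 30.7% in Cont 1 to 4. The 4 values of one group did not overlap the 4 of the other. The means were 30.4% ± 0.207 and 30.9% ± 0.128 (SD, n = 4 each), a difference of -0.451 percentage points with p = 0.0286 in an exact two-sided permutation test, the smallest p that 4 against 4 allows. The share of listed peaks on the gained chromosomes differed by -0.326 points with overlapping groups (exact permutation p = 0.314). Tags per listed peak were 24.4 to 28.8 in the libraries labelled B2_minus and 20.0 to 25.8 in those labelled Cont, and the part of this in the result was not tested.

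Chromosome 20 moved most. It took 4.99%, 4.96%, 4.88% and 4.84% of autosomal tags in B2_minus 1 to 4, and 5.13%, 5.13%, 5.08% and 5.02% in Cont 1 to 4, a difference of -0.173 points. Chromosome 16 differed by -0.119 points and chromosome 17 by -0.103 points. On these 3 chromosomes every library labelled B2_minus was below every library labelled Cont. Chromosome 2 differed by -0.0526 points with overlapping groups (exact permutation p = 0.0571), and chromosome 14 by -0.00341 points (exact permutation p = 0.857). In 8 other autosomes, chromosomes 3, 5, 7, 8, 10, 13, 18 and 21, the libraries labelled B2_minus were all higher. The 22 shares of a library make up a fixed total, so lower shares on some chromosomes go with higher shares on others. These differences are therefore not independent of each other. Over the 22 autosomes tested, the 11 whose groups did not overlap had an adjusted p of 0.0571 (exact permutation tests, Benjamini-Hochberg), so no single chromosome passed 0.05 and the design could not have let one chromosome pass alone.

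**Figure D4:**
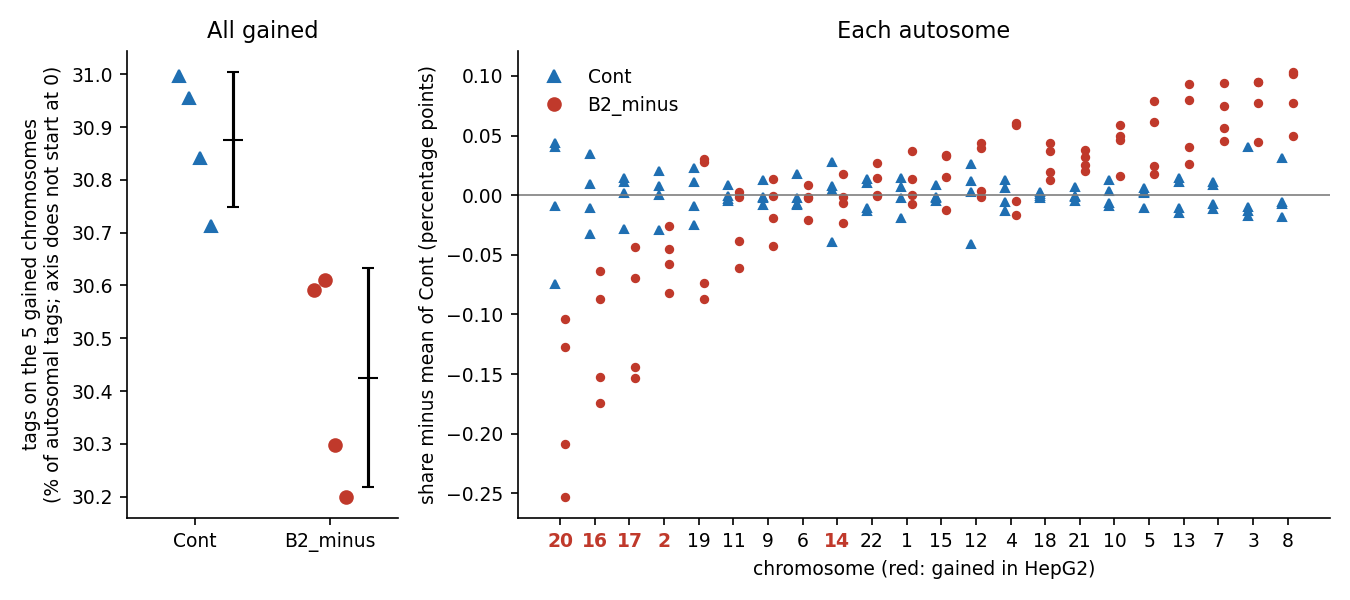
Left, percent of autosomal tags on the 5 gained chromosomes in each library, with mean and SD of the 4 libraries of a group; the axis does not start at 0. Right, the share of each autosome in each library minus the mean of the Cont libraries, in percentage points: chromosomes 20, 16 and 17 have the 3 lowest differences, at -0.173, -0.119 and -0.103.

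Counts of single regions were tested with edgeR's quasi-likelihood test, with Benjamini-Hochberg adjustment over all 141079 regions with a peak in every library and a threshold of 0.05. On the gained chromosomes 3885 of 39594 regions differed between the groups, or 9.81%, beside 9.45% of all regions tested. Rises in the libraries labelled B2_minus numbered 2077, or 5.25% beside 5.5% of all regions tested, and falls numbered 1808, or 4.57% beside 3.95%. Pooled over levels, the share called was thus near the background. By level, the share called on gained and on other autosomes was 4.64% and 4.89% at up to 15 scaled tags. It was 10.1% and 9.68% at 15 to 30, 15.1% and 14.1% at 30 to 60, and 10.9% and 8.80% at 60 to 120. Above 120 it was 2.86% and 0.732%, from 23 rises and 17 falls among 1399 regions and 10 rises and 0 falls among 1367. The number called on gained chromosomes rests on how low the variance of replicates is allowed to go. With the variance held at or above the Poisson value, edgeR called 1325 regions and DESeq2 called 490.

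By chromosome, 762 regions rose and 649 fell on chromosome 2, 298 and 216 on chromosome 14, 312 and 276 on chromosome 16, and 383 and 317 on chromosome 17. Chromosome 20 had 322 rises and 350 falls, but rises outnumbered falls there in 10 of 20 alternatives, among them DESeq2, at 69 and 33, and edgeR held at the Poisson value, at 143 and 95. The other autosomes had 5575 rises and 3716 falls. Calls made up 10.8% of the regions tested on chromosome 2, 9.42% on chromosome 14 and 8.45% on chromosome 16. They made up 8.73% on chromosome 17 and 10.95% on chromosome 20, beside 9.40% on the other autosomes and 9.45% of all regions tested. Single chromosomes among the other autosomes ranged more widely, from 6.16% on chromosome 19 to 11.00% on chromosome 6 and 11.2% on chromosome 18. Most differences were modest, the median log2 fold change being 0.54 for rises and -0.59 for falls. At least a doubling or halving was seen in 160 called regions of the 39594 tested on gained chromosomes, 107 of them rises and 53 falls. On the other autosomes it was seen in 424 of the 9291 called among 98794 tested, 298 of them rises and 126 falls. Relative to the regions tested, changes of this size, rises and falls together, were about as frequent in both sets.

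The median change was lower on the gained chromosomes by a small amount. The median log2 fold change over all tested regions was -0.024 on the gained chromosomes and -0.00019 on the other autosomes, a difference of -0.024 that stayed between -0.021 and -0.027 under every alternative tried. It was -0.049 on chromosome 20, -0.027 on chromosome 16, -0.021 on chromosome 2, -0.020 on chromosome 17 and -0.0097 on chromosome 14. Chromosome 14 did not stand apart from the other autosomes. Chromosome 6 was lower, at -0.0130, and chromosomes 11 and 19 were level with it, at -0.0097. The remaining other autosomes were higher, up to 0.021 on chromosome 13. Fold changes also moved with the level of a region. On the other autosomes the median was -0.070 at up to 15 scaled tags and 0.040 at 60 to 120. The gained chromosomes were lower than the others in each of 5 classes of level, by -0.021 to -0.033. On chromosome 14 the median was -0.026 in the first 50 Mb and 0.0014 beyond, and on chromosome 17 it was -0.0054 in the first 40 Mb and -0.029 beyond.

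The strongest region of each gained chromosome showed no difference past the threshold. These were chr2:20593438-20593814, chr14:23321018-23321287, chr16:8863724-8864046, chr17:59155136-59155730 and chr20:32358014-32358232 (hg38), with means of 173 to 210 scaled tags over the 8 libraries. The region on chromosome 14 was the highest of them. It had 233, 226, 203 and 192 scaled tags in B2_minus 1 to 4 and 208, 189, 213 and 212 in Cont 1 to 4, so the groups overlapped. Log2 fold changes of the 5 regions lay between -0.080 and 0.056, with edgeR adjusted p from 0.436 to 0.912.

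The most changed regions were far weaker. Among the 3885 called regions the groups did not overlap in 2985. Over all tested regions of the gained chromosomes they did not overlap in 13.0%, beside 12.7% of all regions. Those named next had the largest changes on each chromosome among 2626 called regions, 1541 rises and 1085 falls, whose groups did not overlap and whose higher group averaged at least 20 scaled tags. Being chosen for the size of their change, they show neither its typical size nor its frequency. Their fold changes are extremes of the same data, and their adjusted p-values are no separate evidence.

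On chromosome 2 the largest rise was at chr2:20430954-20431266. It had 31.7, 46.2, 47.2 and 39.3 scaled tags in B2_minus 1 to 4 and 11.4, 8.32, 14.1 and 13.2 in Cont 1 to 4, a log2 fold change of 1.82 ± 0.18 (SE, edgeR adjusted p = 3.07e-16). The lowest library labelled B2_minus was more than double the highest labelled Cont. The largest fall was at chr2:174544115-174544521, with 7.39, 7.18, 8.34 and 8.37 in B2_minus 1 to 4 and 13.5, 18.5, 25.9 and 30.8 in Cont 1 to 4. Its Cont libraries were widely spread while the B2_minus libraries all stood near the lowest listed count, so the log2 fold change of -1.46 ± 0.23 (edgeR adjusted p = 2.67e-07) is bounded by that limit.

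Chromosome 14 had its largest rise beyond 50 Mb and its largest fall in the first stretch. The rise, at chr14:93962995-93963455, went from 7.26, 7.40, 10.6 and 7.70 scaled tags in Cont 1 to 4 to 25.3, 23.6, 23.2 and 21.8 in B2_minus 1 to 4, a log2 fold change of 1.51 ± 0.23 (edgeR adjusted p = 7.01e-08). Here the Cont libraries were the ones near the listing limit. The fall was at chr14:23869075-23869351, where B2_minus 1 to 4 had 28.5, 24.6, 26.9 and 24.3 and Cont 1 to 4 had 59.1, 61.9, 53.0 and 66.0. Both groups were well above the listing limit at this region, and its log2 fold change was -1.21 ± 0.12 (edgeR adjusted p = 1.75e-16).

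Chromosome 16 had its largest rise at chr16:15494270-15494603, with 34.8, 31.8, 25.9 and 31.8 scaled tags in B2_minus 1 to 4 and 9.33, 12.02, 15.3 and 9.90 in Cont 1 to 4. The log2 fold change was 1.41 ± 0.20 (edgeR adjusted p = 9.33e-09). Its largest fall was at chr16:72884559-72884879, with 10.6, 8.21, 6.49 and 12.6 in B2_minus 1 to 4 and 20.7, 25.9, 30.6 and 31.9 in Cont 1 to 4 (log2 fold change -1.49 ± 0.22, edgeR adjusted p = 1.92e-08). In both regions the lower group averaged 9.45 to 11.6 scaled tags.

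On chromosome 17 the largest rise, at chr17:65542621-65543200, was also the one with the smallest adjusted p of the 20 changed regions named. It had 54.9, 47.2, 47.2 and 48.6 scaled tags in B2_minus 1 to 4 and 14.5, 19.4, 18.8 and 16.5 in Cont 1 to 4, and the log2 fold change was 1.501 ± 0.147 (edgeR adjusted p = 1.27e-16). All its libraries stood above the listing limit. The largest fall was at chr17:11619234-11619483, in the first 40 Mb. There B2_minus 1 to 4 had 9.50, 9.24, 7.41 and 10.9 and Cont 1 to 4 had 21.8, 26.8, 25.9 and 23.1 (log2 fold change -1.38 ± 0.22, edgeR adjusted p = 2.65e-07). The B2_minus libraries averaged 9.26 scaled tags at this fall, not far above the listing limit.

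Chromosome 20 showed its largest rise at chr20:53751792-53752149, with 34.8, 35.9, 31.5 and 36.0 scaled tags in B2_minus 1 to 4 and 11.4, 12.02, 14.1 and 11.0 in Cont 1 to 4. Replicates were tight in both groups, and the log2 fold change was 1.51 ± 0.19 (edgeR adjusted p = 9.96e-11). Its largest fall, at chr20:16596998-16597300, went from 21.8, 27.7, 27.1 and 20.9 in Cont 1 to 4 to 13.7, 8.21, 9.26 and 8.37 in B2_minus 1 to 4 (log2 fold change -1.31 ± 0.22, edgeR adjusted p = 1.06e-06). B2_minus 1 was the highest of its group and still below every Cont library, while B2_minus 2 to 4 stood near the listing limit.

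The second rise and the second fall of each chromosome were of like size. The rises were at chr2:177338088-177338383, chr14:33907086-33907330, chr16:14505829-14506150, chr17:43536254-43536551 and chr20:47642628-47643007. They had log2 fold changes of 1.32 to 1.71, with group means of 23.8 to 41.1 scaled tags in the libraries labelled B2_minus and 9.21 to 16.3 in those labelled Cont. The falls were at chr2:168152851-168153141, chr14:98633376-98633738, chr16:1437483-1437963, chr17:29008575-29008952 and chr20:49479811-49480047. Their log2 fold changes ran from -1.32 to -1.15, with means of 9.11 to 20.0 and 22.9 to 48.5. The fall at chr14:98633376-98633738 was the least separated, since its highest B2_minus library had 18.47 scaled tags and its lowest Cont library 18.49. All 20 changed regions kept their call and direction with edgeR held at the Poisson value and with DESeq2.

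**Figure D5:**
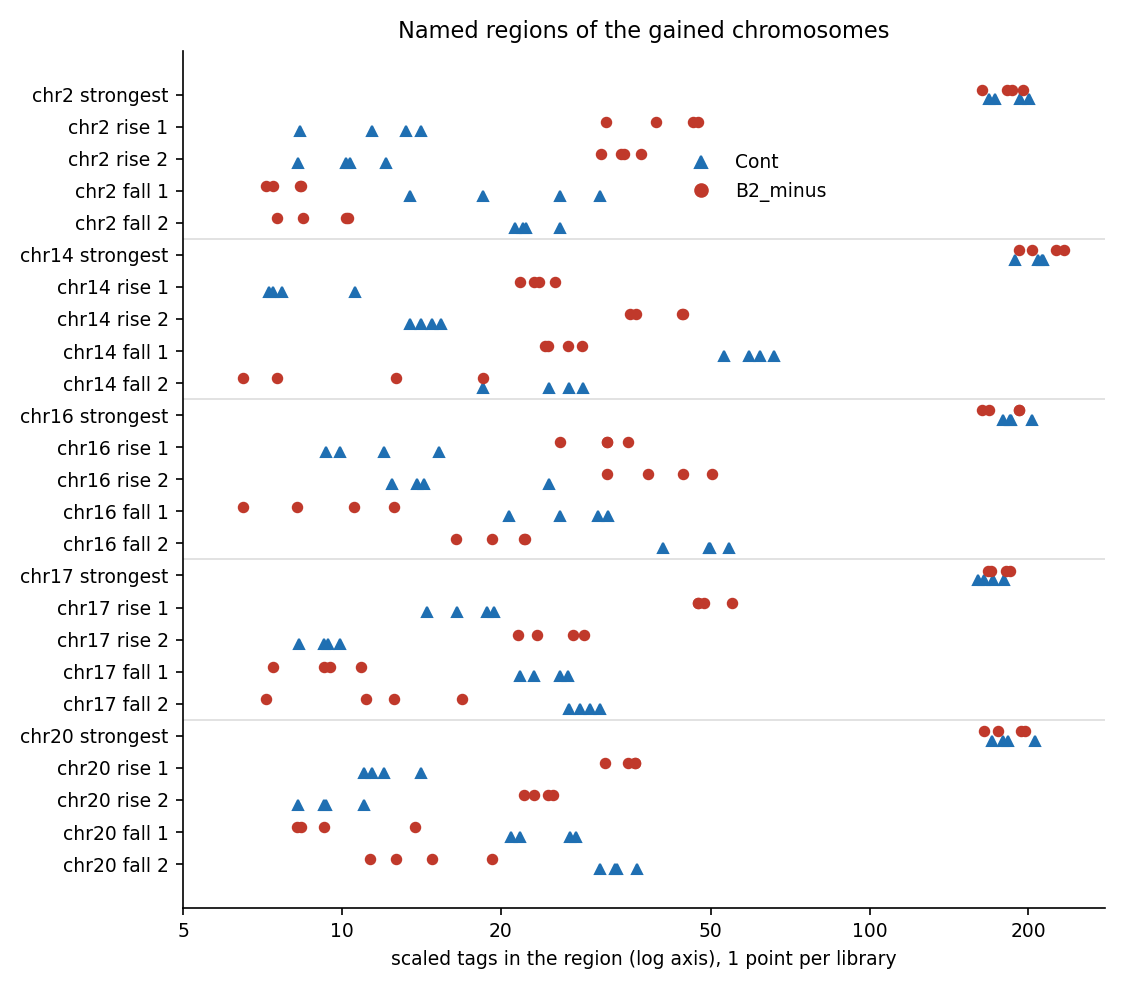
Scaled tags per library (log axis) in the strongest region and in the 2 largest rises and 2 largest falls of each gained chromosome, 1 point per library. The strongest regions overlap between groups at 161 to 233 scaled tags, and in the 20 changed regions, chosen for this, the 4 libraries of one group do not overlap the other 4.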

How the data were processed

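The 8 HepG2 peak lists were used as deposited. Bowtie2, HOMER and the build hg38 are named in the submitters' processing notes, whereas the settings for alignment, duplicates and peak calling are not given. The lists have no header. Their deposited whole-number values were read as tag counts per peak, an inference from the values. Peaks off the autosomes and chromosome X (0.131%) were left out. Overlapping peaks were merged, and a library's highest count stood for the region. Regions with a peak in all 8 libraries entered edgeR 4.0.16 in R 4.3.3 (quasi-likelihood test without the Poisson bound, TMM scaling). Tag shares were compared with exact permutation tests (scipy 1.17.1). DESeq2 1.42.0 and limma 3.58.1 were alternatives. Named regions were, per gained chromosome, the strongest and the 2 largest rises and falls among called regions without overlap and averaging at least 20 scaled tags in the higher group. The chromosomes, the rules and the tests were chosen with earlier results of these data known. Totals cover listed peaks only, so sequencing depth is unknown.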

Additional observations from a re-analysis of the deposited data

Results flagged for a closer look

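Of 70 groups of 4 libraries examined, 3 held a library far from the other 3, where chance alone gives about 1 in 20. The ratio of median levels between gained and other chromosomes was 1.04 in B2_minus replicate 3 and 1.00 in the other 3 libraries of its group, where whole-number counts made the medians equal. At chr14:93962995-93963455, Cont replicate 3 had 10.6 scaled tags and the other Cont libraries 7.26 to 7.70. At chr16:14505829-14506150, Cont replicate 3 had 24.7 scaled tags and the others 12.4 to 14.3. This library also had the lowest number of tags per listed peak, 20.0. Both regions kept their call when it was left out.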

How the results depend on the processing

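The density ratio of 1.84 was 1.92 over first-to-last lengths, 1.92 in 1 Mb windows, 1.69 for regions in at least 2 libraries, 1.499 for those in all 8, 1.68 over listed peaks per library and 1.93 with a merging overlap of 100 bp. Leaving out single libraries, added after seeing the data, gave 1.82 to 1.84. The ratio of median levels, 1.01, was 1.11 at the 90th percentile and 1.06 with the 100 bp overlap. It turned to 0.876 over all listed peaks. Without single libraries it was 1.01 to 1.02. The share difference of -0.451 points was -0.326 for listed peaks (exact permutation p = 0.314), and -0.513 to -0.376 without single libraries, where the smallest exact p possible is 0.0571. Against 3885 calls on gained chromosomes, edgeR held at the Poisson variance made 1325 and DESeq2 490, all among the 3885. Limma made 1813 (1658 shared with the 3885), edgeR on summed peaks 2073 (1882 shared) and with peaks required in only 4 libraries 1814 (1446 shared). Limma with a variance trend, added after its fit without one was seen, gave 3685. Without single libraries 2843 to 3538 regions were called. Across regions, same-numbered libraries did not vary together (correlations of deviations -0.016 to -0.0082), and the numbers were not used as pairs. The pooled tag share, however, was higher in replicates 1 and 2 than in 3 and 4 of both groups, and chromosome 2 was lower in B2_minus in all 4 same-numbered pairs. With the replicate block 3792 regions were called, the median difference was -0.024 and the share difference -0.451 (exact sign-flip p = 0.125, the smallest 4 pairs allow). The strongest regions were never past the threshold, and those of chromosomes 2 and 20 changed sign in 7 cases. On chromosome 2 the log2 fold change was 0.039 without B2_minus replicate 4, 0.0079 without Cont replicate 3, -0.060 without Cont replicate 2, 0.028 without Cont replicate 4 and 0.00021 with peaks required in 4 libraries. On chromosome 20 it was 0.0023 without B2_minus replicate 3, 0.036 without B2_minus replicate 4 and 0.035 without Cont replicate 3. Without Cont replicate 2 the sign was kept, at -0.060 on chromosome 2 and -0.056 on chromosome 20. The causes were not tested. The 20 changed regions named kept their calls, 1 of them untested at a mean count of at least 15. Named regions were not run with the 100 bp overlap, which moves their borders. Peaks below 6 to 8 tags were not listed, which limits folds at weak regions.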

Other observations

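Chromosome 6, which is not among the gained chromosomes of the rule, stood nearest to them in the 99th percentile of level and in the share of regions found in all 8 libraries, though chromosome 19 was higher at the 90th percentile. Its features were also uneven along its length, in stretches chosen after the values were seen. The first 60 Mb held 294 regions per Mb and 69 of its 100 regions among the 1000 strongest, with a 99th percentile of 141 scaled tags. From 60 to 140 Mb the chromosome held 117 regions per Mb, 9 of the strongest, and a 99th percentile of 127. Beyond 140 Mb it held 244 per Mb and 22 of the strongest, with 22.95% of regions found in all 8 libraries. The median log2 fold change was -0.0135, -0.0123 and -0.0119 in the 3 stretches. Its share of autosomal tags differed by -0.00426 points between the groups (exact permutation p = 0.657).

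Some regions had a peak in all 4 libraries of one group and in none of the other. Of the gained chromosomes' regions, 237 (0.146%) did so for the libraries labelled B2_minus and 267 (0.165%) for those labelled Cont. On the other autosomes the numbers were 762 (0.231%) and 589 (0.178%). These counts were not tested.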
